A study of Mus musculus with 16 samples.

Results

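The 9 genes described here encode liver enzymes that turn the sterol ring and side chain of cholesterol into bile acids and then join them to taurine or glycine. They are Hsd3b7, Akr1d1, Akr1c6, Amacr, Acox2, Hsd17b4, Scp2, Slc27a5 and Baat, taken by gene symbol from a table of 12618 genes, and all 9 were in it. Their transcripts were measured by mRNA sequencing in 16 mouse liver libraries, 8 labelled Cyp7a1 CRISPR and 8 labelled control CRISPR. CRISPR is a gene editing method. Both groups are labelled CRISPR, which does not show that either was edited, and both ate a Western diet for 8 weeks. The labels give the genotype of the control libraries as Ctrl, and libraries are named here by group and number (Cyp7a1 24, Control 7). The delivery of CRISPR, the target of the control guides, and the strain, sex and age of the mice were not stated in the sources used here. Nothing in the labels ties the libraries to individual animals, and p-values therefore cover the spread among libraries, which may be technical. The word livers below stands for these libraries.

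Bile acids are made in hepatocytes from cholesterol. In the classical pathway Cyp7a1 adds the first hydroxyl group, Hsd3b7 oxidises the ring in the endoplasmic reticulum, Cyp8b1 can add a further hydroxyl, and cytosolic aldo-keto reductases reduce the ring. The side chain is then oxidised, activated to a coenzyme A thioester and shortened by a round of beta-oxidation in the peroxisome. Conjugation to taurine, the main partner in mice, makes the product more water-soluble.

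The targeted gene checked the labels first. Cyp7a1 had a lowest, median and highest normalized count (reads per gene after scaling each library) of 3069, 4892 and 5873 in the Cyp7a1-labelled livers, against 2148, 3281 and 5642 in controls. It was therefore not lower in the libraries labelled Cyp7a1 (log2 fold change 0.43, limma adjusted p = 0.227). Counts per gene carry no information on edits within the coding sequence, and every direction below rests on the labels. Libraries held 13.8 to 27.4 M recovered reads. All 12 hepatocyte markers looked for, Alb among them, were in the table, and 1 passed the test: Tat was higher, by 0.84 ± 0.24 on the log2 scale (SE), a call lost without any 1 of 11 libraries (limma adjusted p up to 0.0906).

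RefSeq's promoter table (build GRCm38.p6, the patch release of mm10) holds windows of 300 bases for 5 of the 9 genes. Shown here are Akr1d1, Akr1c6 and Acox2. Transcripts of Akr1d1 and Acox2 varied together between livers, though not past the test once every library was scaled to the same total. Akr1c6 is another ring reductase, whose correlation with Akr1d1 did not pass the test. Each reads 5′ to 3′ on the gene's strand. Searched on both strands were the nuclear receptor half-site AGGTCA, its extended form CAAGGTCA (which contains it), the TATA box TATAAA, the CCAAT box CCAAT, the HNF1 half-site GTTAAT, the C/EBP palindrome TTGCGCAA, the E-box CACGTG and the Sp1 box GGGCGG. Capitals mark the matches.
Akr1d1, chr6:37529923-37530222, plus strand: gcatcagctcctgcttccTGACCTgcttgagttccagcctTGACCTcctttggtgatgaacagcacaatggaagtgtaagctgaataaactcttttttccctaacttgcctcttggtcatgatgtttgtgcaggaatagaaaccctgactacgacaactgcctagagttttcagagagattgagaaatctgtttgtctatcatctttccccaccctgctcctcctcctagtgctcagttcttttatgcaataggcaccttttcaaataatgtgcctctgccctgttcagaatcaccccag
Akr1c6, chr13:4434093-4434392, plus strand: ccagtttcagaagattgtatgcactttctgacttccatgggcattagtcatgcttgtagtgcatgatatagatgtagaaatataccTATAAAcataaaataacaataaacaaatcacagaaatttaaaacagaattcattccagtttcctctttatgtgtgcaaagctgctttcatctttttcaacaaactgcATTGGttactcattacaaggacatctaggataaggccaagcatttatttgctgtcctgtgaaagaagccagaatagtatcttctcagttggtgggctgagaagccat
Acox2, chr14:8258790-8259089, minus strand: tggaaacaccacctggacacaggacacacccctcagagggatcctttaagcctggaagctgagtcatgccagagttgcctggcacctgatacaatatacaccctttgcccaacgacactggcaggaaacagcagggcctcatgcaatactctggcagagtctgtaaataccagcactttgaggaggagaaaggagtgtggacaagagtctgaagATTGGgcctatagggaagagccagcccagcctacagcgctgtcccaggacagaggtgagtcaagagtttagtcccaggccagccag

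In the Akr1d1 window AGGTCA matched 2 times on the opposite strand, starting at -232 and -210 from the start site, and 16.3% of 32851 promoter windows hold that motif. The Akr1c6 window held TATAAA at -164 and CCAAT at -57, found in 13.6% and 37.4% of all windows. The CCAAT match was on the opposite strand. In the Acox2 window CCAAT matched on the opposite strand at -36. The other Acox2 window in the table, at a start site further upstream, had none of the 8 motifs. A match describes these letters only. GC content was 45.7% for Akr1d1, 36.0% for Akr1c6 and 54.0% for Acox2, against a median of 52.7% over all windows.

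Levels of different genes were compared per kilobase of the combined exons of each gene. Scp2 stood first with 15689 ± 685 normalized counts per kb in the Cyp7a1-labelled livers and 16311 ± 1239 in controls (SD, n = 8 each), rank 62 of 12593 genes with a length. Scp2 encodes both the peroxisomal thiolase SCPx, which makes the last cut of the side chain, and the shorter sterol carrier protein, and a count per gene cannot separate them. Slc27a5, the bile acid coenzyme A ligase, had 9330 ± 1045 per kb in the Cyp7a1-labelled livers and 9197 ± 1242 in controls. Akr1c6, an aldo-keto reductase with hydroxysteroid dehydrogenase activity, had 8185 ± 696 in the Cyp7a1-labelled livers and 8544 ± 1862 in controls. Slc27a5 lay above Akr1c6 per kb in 13 of 16 libraries. The order of this pair rests on the length used: per kilobase of the longest coding transcript, Akr1c6 had a mean over all 16 livers of 12181 and Slc27a5 one of 9871.

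Hsd17b4, the peroxisomal hydratase and dehydrogenase, followed at 4928 ± 227 per kb in the Cyp7a1-labelled livers and 4928 ± 362 in controls. Baat, which transfers the bile acid to taurine or glycine, had 2645 ± 256 per kb in the Cyp7a1-labelled livers and 2273 ± 290 in controls. Acox2 (the branched-chain oxidase), Akr1d1 (the 5-beta-reductase) and Amacr (the racemase that prepares the side chain for oxidation) had means over all 16 livers of 1765, 1360 and 1081 per kb. Acox2 exceeded Akr1d1 in 13 of 16 libraries and Akr1d1 exceeded Amacr in 13 of 16. Hsd3b7 was last at 107 ± 20.7 per kb in the Cyp7a1-labelled livers and 136 ± 35.4 in controls, below Amacr in 16 of 16 libraries. In the GENCODE M21 annotation 62.0% of its exon bases also belong to Gm49388 on the same strand, a gene absent from the table, and 62.4% to 9430064I24Rik on the opposite strand. Reads there may be assigned elsewhere or dropped, so the Hsd3b7 level is uncertain. Per kilobase of its longest coding transcript Hsd3b7 had a mean over all 16 livers of 184, against 122 with the combined exons. The same length put Scp2 at 21079, Hsd17b4 at 6250.11 and Acox2 at 2248, and the order of means was otherwise kept.

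**Figure D1:**
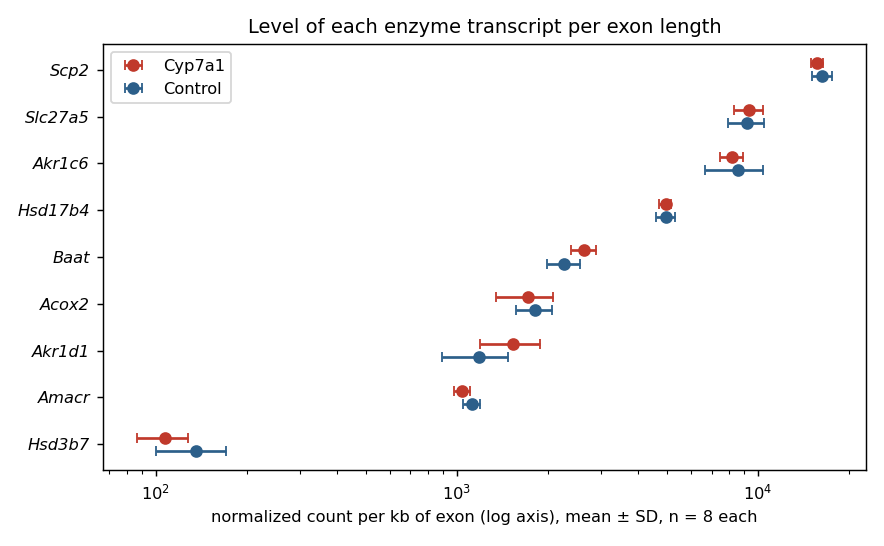
Normalized count per kb of exon (x axis, log scale) for each enzyme transcript, as mean ± SD of 8 Cyp7a1-labelled and 8 control livers. Scp2 is at the top near 16000 per kb and Hsd3b7 at the bottom near 122, and the groups lie close together for every gene.

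None of the 9 enzymes passed the test between the groups. By limma on log2(normalized count + 1), 0 were higher and 0 lower at an adjusted p under 0.05, where 6.12% of 12617 genes were called (3.07% higher and 3.05% lower). At an unadjusted p under 0.05 there were 3 members, Baat, Akr1d1 and Amacr, where 20.5% of all genes passed. edgeR and DESeq2 on recovered reads also called 0 of the 9, against 6.02% and 8.88% of genes. The members' median log2 fold change was -0.04, and that of all genes 0.0034. For 7 of the 9 the 95% interval stayed within a change of 1.5-fold in either direction, the exceptions being Hsd3b7 and Akr1d1, and for 4 it stayed within 1.2-fold. The Cyp7a1-labelled and control groups overlapped for all 9, while 1.04% of all genes had groups that did not overlap.

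**Figure D2:**
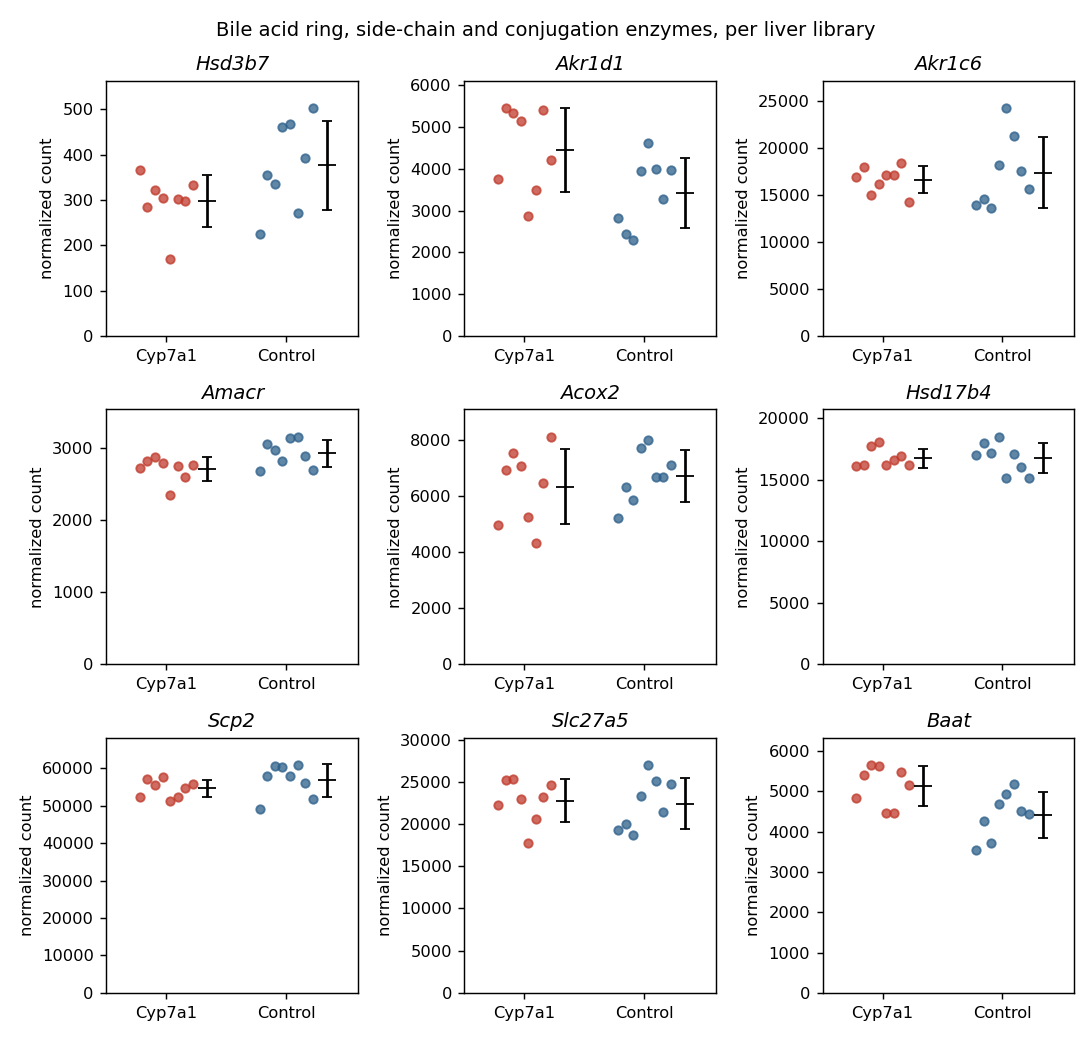
Normalized count (y axis, from 0) of each enzyme transcript in every liver library, Cyp7a1-labelled left in red and control right in blue, with the mean and SD as a black bar. The groups overlap in all 9 panels. Above the highest control lie 4 Cyp7a1 points each for Baat and Akr1d1 and 1 for Acox2. Below the lowest control lie 2 each for Amacr and Acox2 and 1 each for Hsd3b7 and Slc27a5.

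Of the ring enzymes, Akr1d1 (ENSMUSG00000038641, chromosome 6, 37530173 to 37568815 on mm10) had a lowest, median and highest normalized count of 2874, 4669 and 5442 in the Cyp7a1-labelled livers, against 2285, 3619 and 4622 in controls. Of the 8 Cyp7a1-labelled livers, 7 lay above the control mean and 4 above the highest control. The log2 fold change was 0.39 (95% interval 0.04 to 0.73, limma adjusted p = 0.180, two-sided exact permutation p = 0.0531). Hsd3b7 (chromosome 7, 127800604 to 127803802) pointed the other way, with 170, 304 and 366 in the Cyp7a1-labelled livers and 226, 374 and 502 in controls. None of the 8 Cyp7a1-labelled livers reached above the control mean, and Cyp7a1 24 was the lowest of all 16. Its log2 fold change was -0.32 (95% interval -0.67 to 0.03, limma adjusted p = 0.294), and without Cyp7a1 24 it was -0.21. Every library had at most 502 normalized counts of it.

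Akr1c6 (chromosome 13, 4434306 to 4457877) was nearly level between the groups, with 14235, 17040.2 and 18381 in the Cyp7a1-labelled livers and 13585, 16615 and 24237 in controls. The control livers spread more widely, with an SD of 0.13 in the Cyp7a1-labelled livers and 0.30 in controls on the log2 scale, a difference that was not tested. The log2 fold change was -0.04 (95% interval -0.27 to 0.19, limma adjusted p = 0.890). Akr1c genes have close copies, so reads may be split among them.

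Among the side-chain enzymes of the peroxisome, Hsd17b4 and Scp2 had intervals close to 0. Hsd17b4 (chromosome 18, 50128201 to 50196269) had 16117, 16423 and 18116 in the Cyp7a1-labelled livers and 15117, 17079 and 18502 in controls. Its log2 fold change was 0.0020 with a 95% interval of -0.11 to 0.11, and its sign changed between settings. Scp2 (chromosome 4, 108043839 to 108144998) had 51220.4, 55126 and 57533 in the Cyp7a1-labelled livers and 49082, 57861 and 60753 in controls, a log2 fold change of -0.05 (95% interval -0.19 to 0.08). These are among the steadiest transcripts of the table: the SD within groups on the log2 scale was 0.089 for Hsd17b4, 0.092 for Scp2 and 0.093 for Amacr, against a median of 0.174 over all genes. By mean normalized count these 3 genes ranked 154, 44 and 958, and their spread was not compared with genes of like level.

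Amacr (chromosome 15, 10981756 to 10996626) had 2342, 2754 and 2876 in the Cyp7a1-labelled livers and 2673, 2929 and 3153 in controls. All 8 Cyp7a1-labelled livers lay below the control mean, at a fold of 0.926 (95% interval 0.862 to 0.995). Over all genes this was not called (limma adjusted p = 0.210) and 20.5% of genes reached an unadjusted p under 0.05 (two-sided exact permutation p = 0.0284, unadjusted). Acox2 (chromosome 14, 8225511 to 8259353) ranged most among the peroxisomal enzymes, with 4340.5, 6711 and 8131 in the Cyp7a1-labelled livers and 5238, 6706 and 8027 in controls. Its log2 fold change was -0.10 (95% interval -0.36 to 0.16).

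Slc27a5 and Baat activate and conjugate the finished bile acid. Baat (chromosome 4, 49489422 to 49506557) had 4453, 5282 and 5649 in the Cyp7a1-labelled livers and 3551, 4474 and 5181 in controls. All 8 Cyp7a1-labelled livers lay above the control mean and 4 above the highest control, at a fold of 1.17 (95% interval 1.04 to 1.31). The limma adjusted p was 0.107 (two-sided exact permutation p = 0.0190, unadjusted), so Baat was not called. It passed with quantile normalization (log2 fold change 0.215, limma adjusted p = 0.0215) and with every library scaled to equal totals (0.216, limma adjusted p = 0.0293). Slc27a5 (chromosome 7, 12988346 to 12998192) had 17801.5, 23079.5 and 25345.5 in the Cyp7a1-labelled livers and 18731, 22318 and 26953 in controls, a log2 fold change of 0.02 (95% interval -0.16 to 0.21, limma adjusted p = 0.920).

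**Figure D3:**
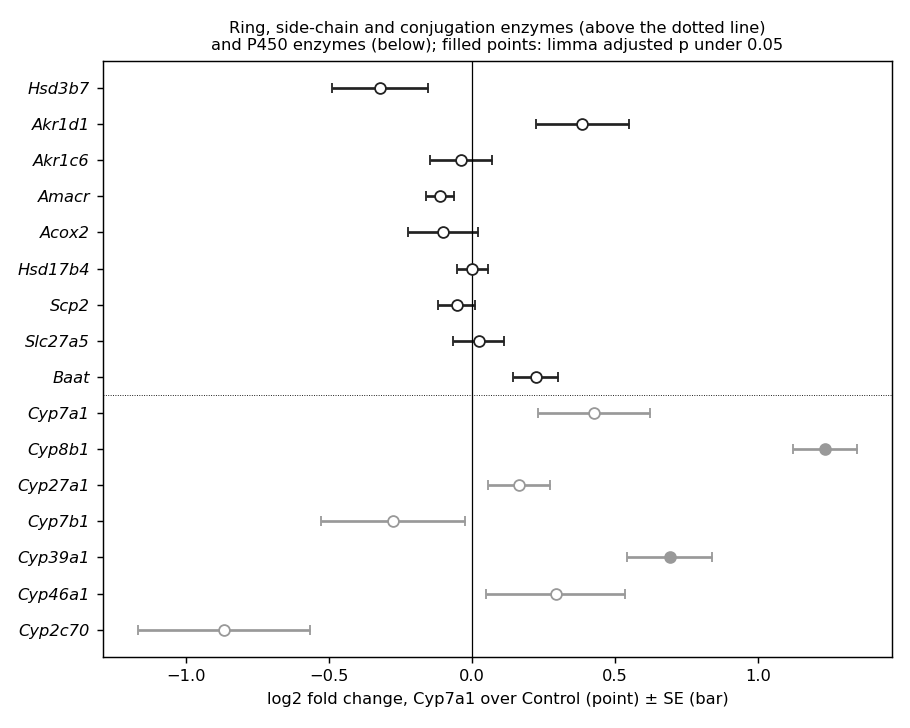
log2 fold change of Cyp7a1-labelled over control livers (x axis), with SE bars, for the 9 enzymes above the dotted line and 7 bile acid P450 enzymes below it; filled points passed limma's adjusted p of 0.05. No point above the line is filled, while Cyp8b1 at 1.23 and Cyp39a1 at 0.69 are filled.

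The P450 enzymes of the same pathway gave 2 higher and 0 lower of 7, with a median log2 fold change of 0.29. Cyp8b1, the sterol 12-alpha-hydroxylase that acts between Hsd3b7 and Akr1d1, had a log2 fold change of 1.23 ± 0.11 (SE), and its groups did not overlap. Cyp39a1, an oxysterol hydroxylase, had 0.69 ± 0.15. Whether the P450 enzymes and the 9 enzymes differ as groups was not tested.

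Relatives of the 9 enzymes included genes that passed the test, as did 6.12% of all 12617 genes. Whether this or any other list held more called genes than that share was not tested. Among 10 tested of 15 listed hydroxysteroid dehydrogenases and aldo-keto reductases, 1 was higher and 3 lower (median log2 fold change -0.23). Akr1c19 had 1055 ± 135 normalized counts in the Cyp7a1-labelled livers and 735 ± 196 in controls (SD, n = 8 each, limma adjusted p = 0.0225). Hsd3b2, a steroid-hormone relative of Hsd3b7, fell to 687 ± 139 in the Cyp7a1-labelled livers, against 1106 ± 252 in controls (limma adjusted p = 0.0114). Srd5a1, the 5-alpha counterpart of Akr1d1, fell by 0.75 ± 0.18 on the log2 scale (SE), and Hsd17b6 fell by 1.73 ± 0.22 on that scale. Of 13 tested of 15 listed ligase, thioesterase and acyltransferase relatives of Slc27a5 and Baat, 1 was higher and 0 lower (median 0.08). It was the fatty acid transporter Slc27a1, with a log2 fold change of 0.68 ± 0.12 (SE).

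In the peroxisome, 2 of 16 other beta-oxidation genes were higher and 0 lower (median log2 fold change 0.04). Abcd3, the membrane transporter that carries bile acid intermediates into the peroxisome, had 14741 ± 1364 normalized counts in the Cyp7a1-labelled livers and 12126 ± 787 in controls (SD, n = 8 each, limma adjusted p = 0.0149). Quantile normalization ended that call (limma adjusted p = 0.0506). Its relative Abcd2 rose by 0.92 ± 0.22 on the log2 scale (SE). Of 19 peroxisome assembly genes 2 were higher and 0 lower (median 0.0025). Among the higher ones Pex2, a subunit of the peroxisomal import ligase, rose by 0.17 ± 0.05 on the log2 scale (SE). Leaving out 1 library ended the Pex2 call for 10 of 16 libraries, at limma adjusted p values up to 0.0772, and with equal totals it was not called (limma adjusted p = 0.123).

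Among 9 genes of taurine and glycine supply, 1 was higher and 2 lower (median 0.06). Csad, which makes the precursor of taurine, had a log2 fold change of 2.43 ± 0.16 (SE). The taurine transporter Slc6a6 fell to 2356 ± 167 in the Cyp7a1-labelled livers, against 3136 ± 563 in controls (SD, n = 8 each, limma adjusted p = 0.0174). Slc6a9, a glycine transporter, fell by 0.47 ± 0.13 on the log2 scale (SE), a call that ended without any 1 of 10 libraries (limma adjusted p up to 0.0685). Among 14 regulators of bile acid synthesis genes, Ppargc1a rose by 0.69 ± 0.11 and Nr0b2, the repressor SHP, fell by 1.95 ± 0.21 on the log2 scale, with a list median of -0.04. In bile acid transport 2 of 10 tested genes were higher, Abcc4 and Slco1a4, and Abcc3 was lower, with a median of -0.04. Leaving out 1 library ended the Slco1a4 call for 5 libraries and the Abcc3 call for 10 (limma adjusted p up to 0.0617 and 0.0831), and with quantile normalization the adjusted p of Abcc3 by limma was 0.112.

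Between livers of the same group the 9 transcripts differed in how far they moved. The SD within groups on the log2 scale was 0.37 for Hsd3b7, 0.36 for Akr1d1, 0.27 for Acox2, 0.23 for Akr1c6, 0.18 for Slc27a5 and 0.17 for Baat. Hsd3b7 and Akr1d1 lay at the 85.5 and 85.0 percentiles of all genes in this spread, and Hsd17b4 at the 8.03 percentile. Single livers stood low for most of the 9. In Cyp7a1 24, 8 of 9 lay below the mean of the Cyp7a1-labelled livers, and 5 were the lowest of that group. In Control 7, 8 of 9 lay below the control mean and 5 were the lowest. Control 20 had 8 of 9 above the control mean, with 4 the highest there. Control 16 and Control 25 also had 8 of 9 above it, and so did Cyp7a1 17, Cyp7a1 19 and Cyp7a1 28 for their group. The total of the normalized counts deviated the same way on the log2 scale, by -0.102 in Cyp7a1 24, -0.076 in Control 7 and 0.110 in Control 20. The share of all genes below or above the group mean in each liver was not computed.

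**Figure D4:**
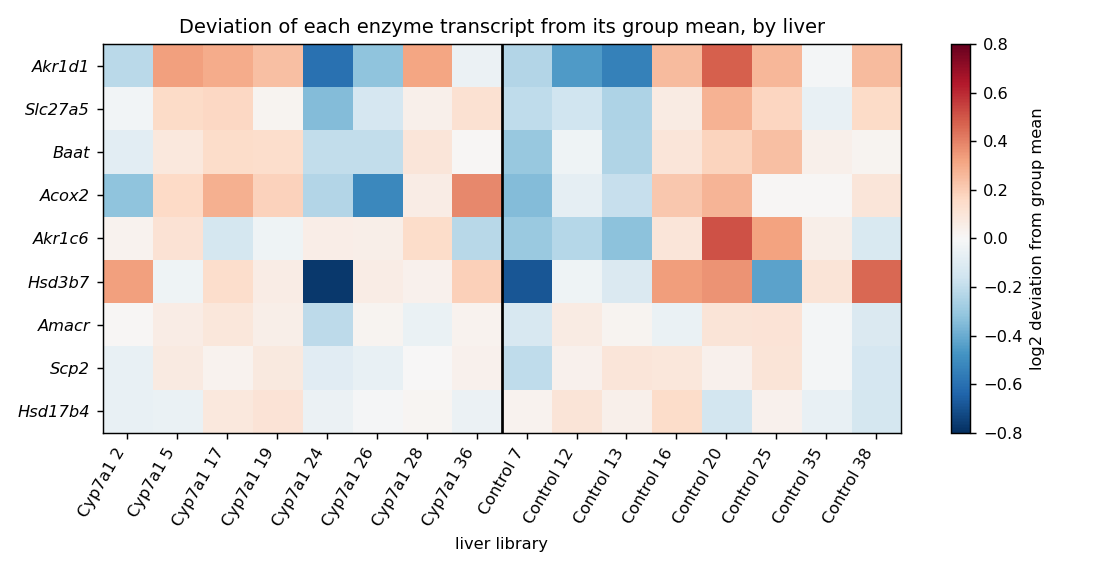
Deviation of each enzyme transcript (rows) from its group mean on the log2 scale, by liver library (columns), Cyp7a1-labelled left of the black line and control right of it; red is above and blue below the mean. Akr1d1, Slc27a5, Baat and Acox2 share colour in most livers, while Hsd17b4 and Scp2 stay pale.

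Akr1d1, Slc27a5, Baat and Acox2 varied together between livers. Correlations were taken over 16 livers on log2 values centred on the group mean, for 36 pairs, with p from 100000 permutations within groups and Benjamini-Hochberg adjustment over the pairs. Pearson's r passed for 7 pairs, all positive, and the median over 36 pairs was 0.43. For Akr1d1 and Slc27a5 r was 0.916 (permutation p = 1e-05, the smallest these permutations can give, adjusted p = 0.00036) and Spearman's rho 0.900 (permutation p = 1e-05). It was 0.868 within the Cyp7a1-labelled livers, 0.957 within controls and 0.860 without Cyp7a1 24 and Control 13. Slc27a5 ranked 5 of 12616 genes by r with Akr1d1. By the same measure Baat ranked 64 and Acox2 506 for Akr1d1, Slc27a5 324 and Baat 222 for Acox2, Baat 167 for Slc27a5, and Scp2 47 for Amacr. Thus 0.0317% of genes had a higher r with Akr1d1 than Slc27a5 did, and 2.56% a higher r with Acox2 than Slc27a5 did. In the other direction Akr1d1 ranked 29 and Acox2 515 for Slc27a5, and Akr1d1 ranked 421 for Acox2. For Baat, Akr1d1 ranked 73, Slc27a5 90 and Acox2 290, and Amacr ranked 49 for Scp2. For Akr1d1 and Baat r was 0.855 (permutation p = 8e-05, adjusted 0.00096) and rho 0.838 (permutation p = 2e-04), with 0.951 within the Cyp7a1-labelled livers, 0.796 within controls and 0.798 without Cyp7a1 24 and Control 13. For Slc27a5 and Baat r was 0.849 (permutation p = 6e-05, adjusted 0.00096) and rho 0.835 (permutation p = 0.00025), with 0.801 without the same 2 livers.

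Acox2 joined these 3 genes with r of 0.779 to Baat, 0.746 to Slc27a5 and 0.720 to Akr1d1, with adjusted permutation p values of 0.00288, 0.00461 and 0.0138. The rho values were 0.703, 0.726 and 0.665, with adjusted permutation p values of 0.0228, 0.0130 and 0.0512, and r without the 2 farthest livers was 0.676, 0.741 and 0.709. With every library scaled to the same total, r of Acox2 was 0.558 to Baat, 0.512 to Slc27a5 and 0.551 to Akr1d1. None of these pairs then passed (adjusted permutation p = 0.0826, 0.165 and 0.134). Amacr and Scp2 formed a separate pair at r = 0.695 (permutation p = 0.00268, adjusted 0.0138) and rho = 0.624 (permutation p = 0.0189, adjusted 0.0755), with 0.543 without Cyp7a1 24 and Control 7. With every library scaled to the same total it did not pass (r = 0.671, adjusted permutation p = 0.0826). For Hsd17b4 r ran from -0.325 to 0.415 over the other 8, and no pair passed at an adjusted p of 0.05. With equal totals its pair with Slc27a5 passed, with a negative sign (r = -0.723, adjusted permutation p = 0.0432), against -0.230 as deposited.

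The r of Akr1c6 with these genes was computed within each group of 8 livers. Its r with Akr1d1 was -0.022 in the Cyp7a1-labelled livers and 0.850 in controls, and with Baat -0.203 and 0.880. With Slc27a5 it was -0.342 in the Cyp7a1-labelled livers and 0.875 in controls, and with Acox2 -0.532 and 0.767. An exact permutation test of the difference gave unadjusted p values of 0.0416, 0.0117, 0.0354 and 0.0222 for these 4 pairs, chosen after their values were seen. Adjusted over all 36 pairs the smallest was 0.359, so no difference between the groups passed.

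Cyp7a1's own transcript also varied with some of them. Of the 9 enzymes, 4 correlated with it over the 16 livers after centring on the group mean, among 9 relations. The share of all genes that correlate with Cyp7a1 was not computed, and these relations were not repeated with equal totals. Other genes were more alike: Cyp7a1 ranked 319 of 12616 genes by r with Baat, 396 with Akr1d1, 774 with Slc27a5 and 1303 with Acox2. Baat gave r = 0.773 (permutation p = 0.00132, adjusted 0.0104) and rho = 0.709 (permutation p = 0.00532), and r = 0.685 without the 2 livers farthest in Baat. Akr1d1 gave r = 0.745 (permutation p = 0.00232, adjusted 0.0104) and rho = 0.647 (permutation p = 0.00976), and 0.642 without the 2 farthest. Slc27a5 gave 0.691 (permutation p = 0.0063, adjusted 0.0189) and rho = 0.685 (permutation p = 0.00875), and 0.571 without the 2 farthest. Acox2 gave 0.562 (permutation p = 0.0194, adjusted 0.0438), and its rho of 0.538 did not pass (adjusted permutation p = 0.0611).

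Several measures of the libraries moved with these 4 transcripts. Their r with the total of the normalized counts lay between 0.873 and 0.943, and with the mean of 12 hepatocyte markers between 0.853 and 0.943. With the mean of 9 stellate cell and fibrosis markers r lay between -0.902 for Akr1d1 and -0.709 for Acox2, and with 6 cholangiocyte markers between -0.850 and -0.800. Each of these 16 relations had an adjusted permutation p of at most 0.00559 over the 63 computed. The share of all genes with r this far from 0 was not computed. The total also includes the counts of the hepatocyte markers, so these measures are not independent. Spearman's rho ran from 0.818 to 0.924 for the first 2 measures and from -0.944 to -0.735 for the other 2. Without the 2 farthest livers the r closest to 0 was -0.645, for Acox2 and stellate markers. With 11 Kupffer cell and macrophage markers r was -0.679 for Akr1d1, and -0.336 without the 2 farthest livers and so rests on them; for Slc27a5 it was -0.644 and -0.195, and for Baat -0.665 and -0.514. For Acox2 it was -0.273 and did not pass (adjusted permutation p = 0.516). Recovered reads gave r of -0.216 to -0.153 for the 4 genes, and 8 endothelial markers -0.128 to 0.014. Outside the 4 genes, Akr1c6 also passed with the stellate cell and fibrosis markers (r = -0.659, adjusted permutation p = 0.0377). Without the 2 farthest livers that r was -0.383.

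When every library was scaled to the same total, an alternative chosen after seeing the data, 2 of the 6 pairs among the 4 genes still passed, Akr1d1 with Slc27a5 (r = 0.841, adjusted permutation p = 0.00648) and Akr1d1 with Baat (r = 0.696, adjusted permutation p = 0.0432). Slc27a5 with Baat (r = 0.625, adjusted permutation p = 0.0826) and the pairs with Acox2 did not. In bulk tissue, fewer cells of a type and less RNA per cell cannot be told apart. The part of these measures in the covariation was not tested. Between the groups the ranges of the marker sums overlapped. Summed stellate and fibrosis markers were 8235 to 15350 normalized counts in the Cyp7a1-labelled livers and 6428 to 16850.5 in controls, with 0 of 9 called (Dcn 0.11 ± 0.08 and Lum 0.28 ± 0.22, log2 fold change ± SE). Summed cholangiocyte markers were 1311 to 3952 in the Cyp7a1-labelled livers and 1105 to 3837 in controls, with 0 higher and 1 lower of 6. The lower one was Krt23, which fell by 2.15 ± 0.31 on the log2 scale (SE) with groups that did not overlap. The other 5 had log2 fold changes above 0 and were not called (Krt7 0.26, Krt19 0.02, Epcam 0.14, Sox9 0.08 and Spp1 0.18). Summed Kupffer cell and macrophage markers were 6385 to 24757 in the Cyp7a1-labelled livers and 7529.81 to 14339 in controls. None of the Kupffer cell, macrophage or endothelial markers was called (Vsig4 0.20 ± 0.12, Lyz2 -0.26 ± 0.18, Lyve1 0.46 ± 0.20 and Kdr -0.18 ± 0.09). The defining stellate marker Lrat and the defining cholangiocyte markers Krt7, Krt19, Epcam and Sox9 were all in the table, where the lowest mean of any gene was 13.3.

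**Figure D5:**
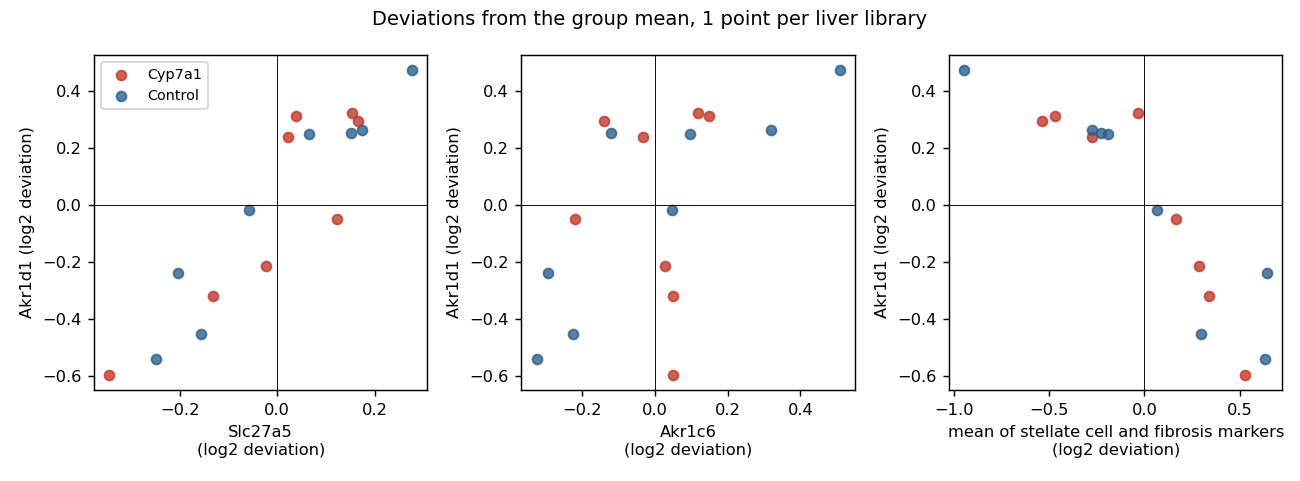
Akr1d1 (y axis) against Slc27a5, Akr1c6 and the mean of stellate cell and fibrosis markers (x axes), all as log2 deviations from the group mean, 1 point per liver, Cyp7a1-labelled in red and control in blue. Points of both groups rise along Slc27a5 (r = 0.916) and fall along the stellate markers (r = -0.902), while along Akr1c6 r was -0.022 in Cyp7a1-labelled livers and 0.850 in controls, a difference that did not pass (smallest adjusted p over 36 pairs 0.359, exact permutation test).

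The genes of the whole table most like 8 of the enzymes, by Pearson's r over the 16 centred livers, were named without a test. Slc27a5 was closest to F2, prothrombin, at r = 0.970, and to Ndrg2 at 0.961. Baat was closest to Lipc, hepatic lipase, at 0.945, and to Hagh at 0.939. Akr1d1 was closest to Cyp2c37 at 0.932 and Smarcd2 at 0.929, and Acox2 to Gldc, the glycine decarboxylase, at 0.936 and Cyp3a13 at 0.923. Akr1c6 was closest to Nit2 at 0.951, followed by Prkd3 at 0.925. For the peroxisomal enzymes that varied least the closest genes were Hao1, the peroxisomal hydroxyacid oxidase, for Scp2 (0.833), Cenpb for Hsd17b4 (0.861) and Akt2-ps for Amacr (0.871). All genes share the libraries and their scaling.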

How the data were processed

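The data are mRNA sequencing of 16 mouse liver libraries, 8 per group. Per the labels' protocols, RNA came from flash-frozen tissue. The authors deposited 1 table of signal per gene and library, normalized counts. The build was mm10 and the tools named were DESeq2, featureCounts, R 3.6.3, STAR 2.7.11a and Trim Galore 0.6.10, in no stated order or role, per the submitters' processing notes. Annotation, strand setting and the choice of genes were not stated in the sources used here, so reads of overlapping genes may go to either gene.

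Within each library values were whole multiples of a step, 0.769 to 1.54, and 99.94% to 99.99% came out whole (tolerance 0.05 reads). Recovered reads were 23.4 ± 2.41 M in Cyp7a1-labelled and 21.02 ± 3.48 M in control libraries (SD, n = 8 each). The main test was limma 3.58.1 (trend) in R 4.3.3 on log2(value + 1), a scale that understates the change of low genes, two-sided, adjusted over 12617 genes at 0.05. Ccne2 had a text cell and was left out. The minimum mean of 10 removed no gene, and all 9 members passed it. The alternatives tried included quantile normalization, equal totals, a minimum mean of 50 or no filter, a pseudocount of 8, TMM factors, array weights, edgeR 4.0.16, DESeq2 1.42.0, a 1.5-fold minimum and leaving out each library. The steps were tested on simulated data, in which changes between groups were 1.5-fold or larger. Smaller changes were not simulated.

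The 9 members and all lists were chosen with earlier results of these data known. Named genes are the members, Cyp7a1, up to 4 called genes of each list with the smallest p (2 where none was called), and the genes with the highest r to each member, of which 1 or 2 are printed for 8 members; a few genes this rule names are not reported here. The Cyp7a1 and library-measure correlations, the test of differing r and equal totals for correlations were added after seeing the data. Coordinates are GENCODE M21 on GRCm38 (mm10), 1-based.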

Additional observations from a re-analysis of the deposited data

Results flagged for a closer look

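Of 76 sets of 8 values looked at, 4 held a library apart from the rest on the log2 scale by Dixon's 95% criterion. Chance alone would give about 3.8 (1 in 20). Of the 9 enzymes, Hsd3b7 was low in Cyp7a1 24, at 170 normalized counts against 284 to 366 in the other Cyp7a1-labelled livers. In the same liver Akr1c19 was low, at 779 against 1008 to 1184. Abcd3 was low in Cyp7a1 36, at 11692 against 14289 to 16109. Lyz2 was high in Control 13, at 2528 against 1150 to 1660 in the other controls.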

How the results depend on the processing

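The count of 0 members called held under every alternative except quantile normalization and equal totals, which called 1 higher, Baat, at log2 fold changes of 0.215 and 0.216, against 0.223 as reported. Leaving out any 1 library called 0 members. Genes called over the table ranged from 230 to 399 higher and 245 to 414 lower when 1 library was left out, the lowest without Cyp7a1 28, and 256 were lower without Control 16. With a change of at least 1.5-fold they were 111 and 83. DESeq2 called 548 higher and 573 lower, and equal totals 263 and 372, against 387 and 385 by limma.

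The fold changes near 0 changed sign with the setting. That of Hsd17b4 was -0.0301 with quantile normalization, -0.00525 with equal totals, -0.026 with array weights, -0.00037 with DESeq2 and -0.0189 to 0.0227 without 1 library. Akr1c6 was 0.0108 with array weights and -0.0851 to 0.0343 without 1 library, Scp2 0.00713 with quantile normalization, and Slc27a5 -0.0548 with quantile normalization and -0.0118 to 0.0729 without 1 library. The other 5 kept their sign in all settings, with ranges without 1 library of -0.419 to -0.21 for Hsd3b7, 0.309 to 0.471 for Akr1d1, -0.129 to -0.0809 for Amacr, -0.155 to -0.0254 for Acox2 and 0.18 to 0.258 for Baat.

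Correlated pairs numbered 7 by Pearson, 5 by Spearman and 3 with equal totals. Those 3 held 2 of the 7 and 1 other pair, Hsd17b4 with Slc27a5, which was negative, and the cause was not tested. Levels per kb moved by more than the spread for 5 of the 9 genes with the longest coding transcript, among them Hsd3b7 (184, against 122). No paired analysis was possible because the groups share no replicate numbers.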
